A study of Mus musculus with 3 samples.

Results

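A set of 10 genes of the tumour necrosis factor (TNF) receptor superfamily and its surroundings were followed through RNA-seq of sorted T follicular regulatory (TFR) cells. They were the receptors Tnfrsf18 (GITR), Tnfrsf4 (OX40), Tnfrsf9 (4-1BB), Tnfrsf1a (TNFR1), Tnfrsf1b (TNFR2), Cd27 and Fas, the ligands Tnfsf8 (CD30L) and Tnfsf11 (RANKL), and the receptor adaptor Traf1. They were chosen by name from the gene tables, so that these 10 stood among 25759 listed genes, and all 10 exceeded an RPKM (exon reads scaled to exon length and library total) of 5 in at least 1 library, as did 7017 genes in all.

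There were 3 libraries, 1 per genotype, from C57BL/6J mice immunized with 125 µg NP-KLH in alum and boosted on day 7, with B220-CD4+BlimpGFP+CXCR5+GITRhi cells sorted from spleen and mesenteric lymph nodes on day 10. The library labelled N was Nfatc1fl/fl.Prdm1gfp/+.FIC (NFATc1-deficient), αA was Nfatc1caaA.Prdm1gfp/+.FIC (NFATc1/αA-overexpressing), and PαA was Nfatc1caaA.Prdm1gfp/fl.FIC (NFATc1/αA-overexpressing and Blimp-1-deficient). Every mouse therefore carried a Prdm1-gfp reporter allele and Foxp3-IRES-Cre (FIC), which expresses Cre from the Foxp3 locus and which the study also saw active in some Foxp3-negative CD4+ T cells, and no library came from mice without an altered Nfatc1 allele. The number of mice behind a library and their age were not given in the sources used here. The libraries held 25465829 to 29726219 mapped reads. With 1 library per genotype there was no replicate check and no test, and every interval below is a 95% exact interval for read counting only, so it does not cover variation between mice or PCR copies. In sorted bulk RNA, fewer cells of a type and less RNA per cell cannot be told apart.

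Receptors of this superfamily are single-pass membrane proteins that trimeric ligands cluster at the cell surface. Receptors without a death domain, such as GITR, OX40, 4-1BB, TNFR2 and CD27, recruit TRAF adaptors and activate NF-kB, whereas TNFR1 and FAS carry a death domain. Regulatory T cells are known for high surface GITR, OX40, 4-1BB and TNFR2, and signals through these receptors support their expansion and survival.

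The targeted genes checked the labels first. Nfatc1 stood at an RPKM of 63.6 in N, 62.9 in αA and 32.4 in PαA, so its totals did not follow the labels of deficiency in N and overexpression in αA and PαA. Gene totals do not show whether the deleted part was read, and no library with unaltered Nfatc1 was there to set them against. Prdm1, which encodes Blimp-1, stood at 25.6, 24.9 and 10.0, lowest in the library labelled Blimp-1-deficient. N, αA and PαA are therefore used throughout as the labels of 3 libraries. Cd4 had an RPKM of 488, 396 and 341 and Foxp3, the lineage factor of regulatory T cells, one of 32.7, 20.9 and 15.3, so the sorted type was present in all 3 while Foxp3 differed in the same order as many receptors below. Cxcr5, the follicular homing receptor of the gate, stood at 48.3, 81.3 and 47.6 and Bcl6, the follicular lineage factor, at 9.16, 5.96 and 4.71.

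Of the 10 genes, 5 lay on chromosome 4 of GRCm38. Tnfrsf4 (chr4:156013843-156016612, + strand) and Tnfrsf18 (chr4:156026164-156028895, + strand) were neighbours with 9551 bp between them, and Tnfrsf9 (chr4:150914562-150946102, + strand), Tnfrsf1b (chr4:145213463-145246870, - strand) and Tnfsf8 (chr4:63831308-63861347, - strand) lay further off. Cd27 (chr6:125232622-125237010, - strand) and Tnfrsf1a (chr6:125349362-125362484, + strand) were 112351 bp apart on chromosome 6. Fas (chr19:34290659-34327770, + strand), Tnfsf11 (chr14:78277445-78308043, - strand) and Traf1 (chr2:34941750-34961772, - strand) stood alone.

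The 250 bases before the RefSeq start (GRCm38.p6) are shown 5′ to 3′ for Tnfrsf9 (chr4:150919905-150920154, + strand), Tnfrsf1b (chr4:145246871-145247120, - strand) and Cd27 (chr6:125237028-125237277, - strand), which were the genes past 2-fold in the comparisons with αA and whose windows held no annotated exon (GENCODE M21). Capitals mark GGAAA or its reverse complement, the core that NFAT proteins are known to bind. The Tnfrsf9 window precedes the first of 2 RefSeq starts of that gene and lies inside its annotated gene region.
Tnfrsf9: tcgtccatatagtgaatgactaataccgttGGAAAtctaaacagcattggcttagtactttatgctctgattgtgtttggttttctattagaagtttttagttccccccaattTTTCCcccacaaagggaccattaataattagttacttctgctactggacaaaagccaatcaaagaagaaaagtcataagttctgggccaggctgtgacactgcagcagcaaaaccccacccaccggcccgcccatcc
Tnfrsf1b: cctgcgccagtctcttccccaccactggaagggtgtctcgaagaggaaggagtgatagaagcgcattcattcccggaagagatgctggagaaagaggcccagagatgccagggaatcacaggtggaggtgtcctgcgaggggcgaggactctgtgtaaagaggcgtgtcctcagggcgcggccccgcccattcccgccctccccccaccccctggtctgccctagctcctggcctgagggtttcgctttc
Cd27: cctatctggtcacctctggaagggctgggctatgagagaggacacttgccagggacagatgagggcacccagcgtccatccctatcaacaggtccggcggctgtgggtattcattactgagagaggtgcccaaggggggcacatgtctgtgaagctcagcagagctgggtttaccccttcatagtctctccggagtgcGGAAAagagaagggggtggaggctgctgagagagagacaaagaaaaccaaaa
GGAAA was found on either strand at -220 and -137 from the start in Tnfrsf9, at -52 in Cd27 and nowhere in the Tnfrsf1b window. It was present in 9 of the 11 windows of the 10 genes, with none in that of Tnfrsf1a, and in 55.6% of 32817 RefSeq windows of the same length. The letters GNGAAAG, a core of Blimp-1 sites, were found in Tnfrsf1b (-163), Fas (-177) and Tnfsf11 (-91), 3 of 11 windows against 19.4% of all. A narrow form of the NF-kB letters, GGGA and TTCC with 2 bases between them, was found in 0 of 11 windows against 1.21%. Other forms of the NF-kB letters were not searched, so this count does not show that the windows lack them. A match is a run of letters and not a shown binding site.

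Across the comparisons, 6 of the 10 genes were lower in αA than in N and lower again in PαA, while Tnfrsf1b, Cd27 and Tnfrsf1a were highest in αA and Tnfsf11 was lowest there. Of all genes with an RPKM above 5, 68.1% were lower in αA than in N and 56.9% lower in PαA than in αA. The share of all genes that were lower in both steps was not counted. The median gene with an RPKM above 5 had a log2 ratio of -0.14 for αA against N, -0.06 for PαA against αA and -0.19 for PαA against N, and trimmed-mean (TMM) scaling moved all ratios up by 0.16, 0.07 and 0.23. The 10 genes had medians of -0.33, -0.56 and -0.74. Below the median gene lay 7 of 10, 9 of 10 and 8 of 10, in the same order of comparisons. Among the genes that stepped down, TMM scaling left Tnfrsf4 at -0.03 and Traf1 at -0.07 for αA against N. The others, Fas, Tnfsf8, Tnfrsf18 and Tnfrsf9, stood at -0.26, -0.26, -0.32 and -0.46. The comparisons share libraries, so their values are not independent.

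**Figure D1:**
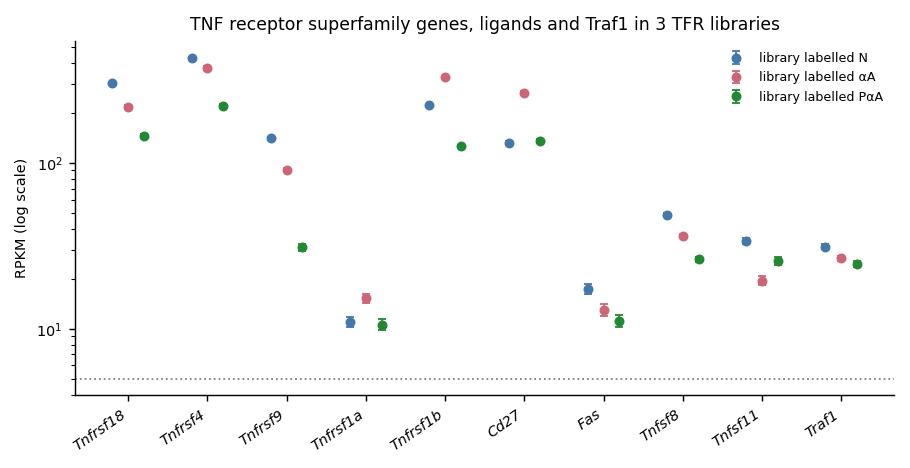
RPKM on a log axis for the 10 genes in the libraries labelled N (blue), αA (red) and PαA (green), with bars for the 95% counting interval and a dotted line at an RPKM of 5. Tnfrsf18, Tnfrsf4, Tnfrsf9, Fas, Tnfsf8 and Traf1 step down from N to αA to PαA, while Tnfrsf1a, Tnfrsf1b and Cd27 are highest in αA.

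Tnfrsf9 encodes 4-1BB, a costimulatory receptor induced by antigen receptor signals. It stood at an RPKM of 140.5 in N, 91.2 in αA and 30.9 in PαA, from 11356, 6754 and 2139 exon reads. The values did not overlap within counting error, and PαA was the lowest by a wide margin. The log2 ratio of PαA against αA was -1.56 (-1.63 to -1.49), or 2.95-fold lower, and 38 of 7017 genes had a lower ratio in this comparison. Against N the ratio was -2.19 (-2.25 to -2.12), or 4.55-fold lower, with 42 genes lower still. For αA against N it was -0.62 (-0.67 to -0.58). Of the exon reads of Tnfrsf9, 25.6% in N, 23.1% in αA and 23.6% in PαA were uniquely placed, whereas 8 of the 10 genes had unique reads only. Unique reads alone gave -0.77 for αA against N, -1.53 (-1.68 to -1.39) for PαA against αA and -2.31 for PαA against N, the same directions.

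Tnfrsf1b encodes TNFR2, the TNF receptor that prevails on regulatory T cells. Its RPKM was 225 in N, 327 in αA and 126 in PαA (25486, 34055 and 12240 reads), which made it the most deeply read of the 10 genes. It was highest in αA and lowest in PαA. The log2 ratio of αA against N was 0.54 (0.52 to 0.57), that of PαA against αA -1.38 (-1.41 to -1.35, 2.60-fold lower, 62 genes lower) and that of PαA against N -0.83 (-0.87 to -0.80). Between αA and PαA it passed from place 204 to place 478 among the 7017 genes ranked by RPKM.

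Tnfrsf1a encodes TNFR1, the death domain receptor for the same cytokine. It was read far less, at an RPKM of 11.0 in N, 15.3 in αA and 10.6 in PαA (796, 1013 and 654 reads). The ratio of αA against N was 0.47 (0.34 to 0.61) and that of PαA against αA -0.53 (-0.68 to -0.39). N and PαA did not differ beyond counting error, at -0.06 (-0.21 to 0.09), and the sign of that ratio turned with TMM scaling (0.17). Junction reads, which cross from exon to exon, gave -0.03 (-0.34 to 0.27) for αA against N, an interval that does not reach the exon ratio.

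Tnfrsf18 encodes GITR, whose protein was part of the sort gate, so the cells were chosen in part by this receptor. Its RPKM was 303 in N, 217 in αA and 145 in PαA (11363, 7445 and 4640 reads), each step beyond counting error. The ratio was -0.48 (-0.53 to -0.44) for αA against N, -0.58 (-0.64 to -0.53) for PαA against αA and -1.07 (-1.12 to -1.02) for PαA against N, where TMM scaling gave -0.84 and left it short of 2-fold. In GENCODE M21, 414 exonic bases of Tnfrsf18 overlap the antisense gene Gm16008, and strand use in the counting was not given in the sources used here, so reads there cannot be told apart. The 5 genes nearest to Tnfrsf18 in both ratios (αA against N and PαA against αA), among 6887 genes with at least 100 reads in each library, were Fbxo38, Myo18a, Gripap1, Plagl2 and Tspan5, all within 0.027 on the log2 scale, and 39 genes lay within 0.1.

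Tnfrsf4 encodes OX40, the costimulatory receptor next to Tnfrsf18 on the chromosome. It had the highest level of the 10 genes in each library, with an RPKM of 429 in N, 374 in αA and 220 in PαA (13123, 10503 and 5770 reads). The drop lay mainly between αA and PαA, at -0.77 (-0.81 to -0.72). For αA against N the ratio was -0.20 (-0.23 to -0.16), close to the median gene and at -0.03 after TMM scaling. PαA against N gave -0.96 (-1.01 to -0.92).

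Cd27 encodes the receptor for CD70. Its RPKM was 132 in N, 265 in αA and 136 in PαA (6121, 11250 and 5406 reads), so αA stood apart from a nearly equal pair. The ratio of αA against N was 1.00 (0.96 to 1.05), at the 2-fold limit with an interval on both sides of it, and 100 genes had a higher one. PαA against αA gave -0.96 (-1.01 to -0.91). PαA and N did not differ beyond counting error, at 0.04 (-0.01 to 0.10). In this gene 21.8%, 22.0% and 19.1% of reads were unique, and unique reads gave 1.01 (0.92 to 1.11), -1.17 (-1.27 to -1.06) and -0.15 (-0.27 to -0.04), so that the last sign turned. Cd27 and Tnfrsf9 were among 646 of the 7017 genes (9.21%) with under 50% unique reads, and where their other reads could also be placed was not tested.

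Fas encodes the death receptor CD95. It stood at an RPKM of 17.4 in N, 13.0 in αA and 11.2 in PαA (931, 637 and 512 reads). The step from N to αA, -0.42 (-0.57 to -0.28), was beyond counting error, and that from αA to PαA, -0.22 (-0.39 to -0.05), was near the edge of it and included the median gene. PαA against N was -0.64 (-0.80 to -0.48).

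The 2 ligand genes differed in pattern. Tnfsf8 encodes CD30L and stood at an RPKM of 48.8 in N, 36.3 in αA and 26.2 in PαA (5521, 3766 and 2537 reads), stepping down as Tnfrsf18, Tnfrsf4 and Tnfrsf9 did. Its ratios were -0.43 (-0.49 to -0.37), -0.47 (-0.55 to -0.40) and -0.90 (-0.97 to -0.83). Tnfsf11 encodes RANKL and stood at 33.9 in N, 19.5 in αA and 25.6 in PαA (2253, 1189 and 1457 reads). It was the only one of the 10 genes with a higher value in PαA than in αA, at 0.39 (0.28 to 0.50), after -0.80 (-0.90 to -0.69) for αA against N. PαA remained below N, at -0.41 (-0.50 to -0.31).

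Traf1 encodes an adaptor that is itself an NF-kB target and binds the tails of several of these receptors through TRAF2. Its RPKM moved least over the 3 libraries, with 31.2 in N, 26.6 in αA and 24.5 in PαA (3760, 2938 and 2523 reads). The ratios of -0.23 (-0.30 to -0.16), -0.12 (-0.20 to -0.05) and -0.35 (-0.43 to -0.28) were 0.09, 0.06 and 0.16 below the median gene.

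**Figure D2:**
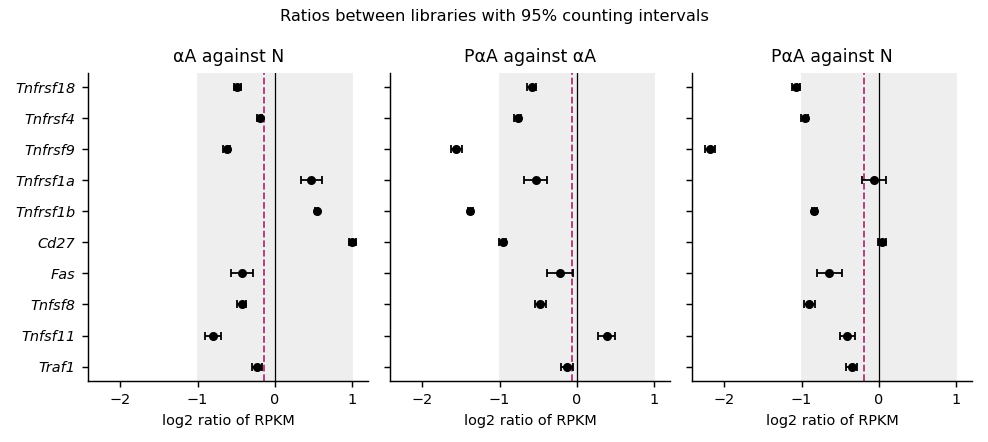
Log2 ratio of RPKM (x axis) for the 10 genes in αA against N, PαA against αA and PαA against N, with bars for the 95% counting interval. The shaded band spans 2-fold either way and the dashed line is the median of the 7017 genes. Tnfrsf9 lies outside the band in both comparisons of PαA, at -1.56 and -2.19.

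Counted against all genes, few of the 10 passed a 2-fold limit. For αA against N, 1 of 10 was past it (Cd27, higher) beside 4.25% of the 7017 genes, 1.44% higher and 2.81% lower. For PαA against αA, 2 of 10 (Tnfrsf9 and Tnfrsf1b, both lower) stood beside 4.63%, 2.18% higher and 2.45% lower. For PαA against N, 2 of 10 (Tnfrsf9 and Tnfrsf18, both lower) stood beside 10.3%, 2.57% higher and 7.77% lower. At 1.5-fold, 3 of 10 were past the limit in αA against N (Cd27 higher, Tnfrsf9 and Tnfsf11 lower) beside 14.1% of all genes, 3.12% higher and 11.0% lower. In PαA against αA, 5 of 10 stood beside 14.7%, 5.53% higher and 9.19% lower, and all 5 were lower (Tnfrsf9, Tnfrsf1b, Cd27, Tnfrsf4 and Tnfrsf18, the last just at the limit). In PαA against N, 6 of 10, all lower (Tnfrsf9, Tnfrsf1b, Tnfrsf4, Tnfrsf18, Fas and Tnfsf8), stood beside 28% of all genes, 5.67% higher and 22.3% lower. The split of all genes past 2-fold turned on the scaling: in αA against N it was 101 higher and 197 lower, and 134 and 112 with TMM. In PαA against αA it was 153 and 172, and 172 and 132 with TMM. In PαA against N it was 180 and 545, and 258 and 251 with TMM. Counts over so few named genes describe them and single out no group.

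Reads of different kinds in the same genes were then set side by side. Junction reads are part of the exon reads, so exon and junction ratios are not independent. In Tnfrsf9 the PαA against αA ratio was -1.56 from exon and junction reads alike, and in Tnfrsf1b junctions gave -1.28 (-1.36 to -1.21) beside -1.38 from exons. In the same comparison junctions gave a smaller difference than exons for Tnfrsf18, -0.41 (-0.51 to -0.30), and a larger one for Cd27, -1.17 (-1.27 to -1.06), with no overlap of the intervals in either gene. Intron reads, which come in part from unspliced RNA, were few and varied widely. Over 4482 genes the middle 80% of intron ratios in that comparison spanned -1.95 to 0.94, with a median of -0.33. Tnfrsf9 introns gave -1.31 (-1.80 to -0.83) from 135 reads in αA and 51 in PαA, of which only 8 and 9 were unique. Tnfrsf1b introns gave -0.78 (-1.02 to -0.54) from 415 and 226, lower like the exons but by less, and 1.03 (0.79 to 1.27) for αA against N. Cd27 introns gave a ratio like that of the exons in αA against N, at 1.04 (0.82 to 1.27), although none of those reads was unique.

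Exon and intron ratios parted in several genes. They also parted over all genes in αA against N, where the median was 0.33 from introns and -0.14 from exons. The middle 80% of intron ratios there spanned -0.90 to 1.83 over 4708 genes. For PαA against N the medians were 0.01 and -0.19. Tnfrsf18 introns gave 0.48 (-0.22 to 1.20) for αA against N, from 32 reads in N and 41 in αA, where exons gave -0.48. Tnfrsf4 introns gave -1.28 (-2.04 to -0.57) in that comparison, from 61 and 23 reads, where exons gave -0.20. Tnfrsf1b introns gave 0.25 (-0.02 to 0.52) for PαA against N, where exons gave -0.83. The low read numbers of most of these introns leave wide intervals. Fas introns gave 0.61 (0.13 to 1.11) for αA against N, from 62 reads in N and 87 in αA, where exons gave -0.42, and -1.89 (-2.63 to -1.20) for PαA against αA, from 22 reads in PαA. Tnfsf11 introns gave -1.07 (-1.61 to -0.55) for PαA against αA, where exons gave 0.39 and junctions 0.66 (0.27 to 1.05). Tnfsf8 had few junction reads, a share of 4.93%, 3.35% and 5.72% of its exon reads, and these gave 0.30 (-0.05 to 0.66) for PαA against αA beside -0.47 from exons. The intron ratios of Fas and Tnfsf11 in these sentences lay within the middle 80% over genes, and that of Tnfrsf4 lay below it.

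**Figure D3:**
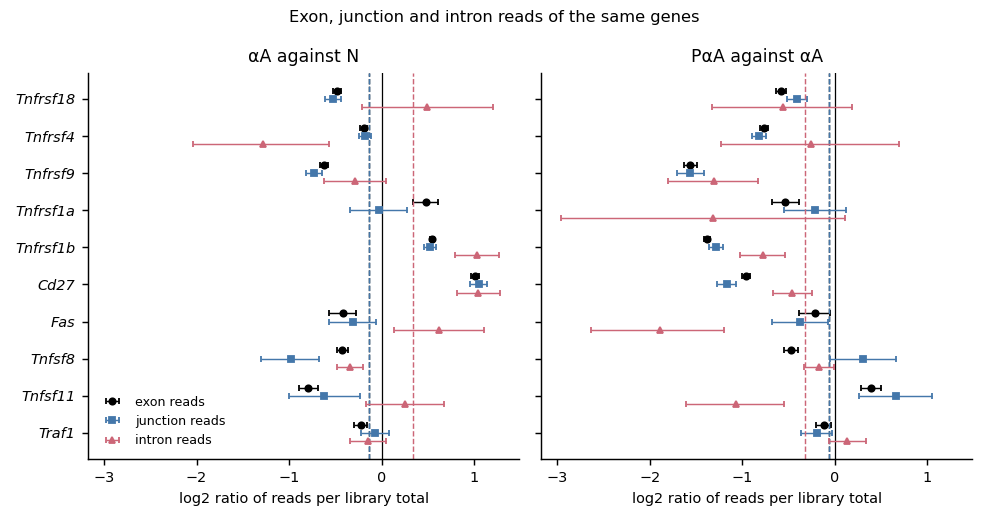
Log2 ratio of reads per library total (x axis) from exon (black circles), junction (blue squares) and intron reads (red triangles) of the 10 genes, with 95% counting intervals and dashed lines at each kind's median over genes. Exon and junction ratios lie close together in Tnfrsf9, Tnfrsf1b and Tnfrsf4, and intron ratios have far wider intervals. The intron ratio of Tnfrsf1a for αA against N is not drawn because N had 0 intron reads.

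The wider family was listed next. Of 28 receptor genes, 12 exceeded an RPKM of 5, 7 of them described above. Tnfrsf8, which encodes CD30, the receptor of CD30L, had an RPKM of 15.0 in N, 8.76 in αA and 4.19 in PαA and was past 2-fold in both comparisons of PαA, though not in PαA against αA with TMM, median-of-ratios factors or a pseudocount of 1. Tnfrsf25 (DR3, a death domain receptor that costimulates T cells) went the other way, with 17.1, 10.5 and 33.1 and a PαA against αA ratio of 1.66 (1.52 to 1.80). Tnfrsf26 stood at 8.71, 11.6 and 19.1. Tnfrsf14 (HVEM) stood at 12.7, 10.2 and 7.07 and Tnfrsf13b (TACI) at 25.9, 21.7 and 22.7. Past 2-fold were 1 of the 12 in αA against N, 4 in PαA against αA (3 lower) and 4 in PαA against N (3 lower). These stood beside 4.25%, 4.63% and 10.3% of all 7017 genes. The medians of the 12 were -0.28, -0.56 and -0.74, but 7 of the 12 are from the set above. The 5 other receptors had medians of -0.32, 0.06 and -0.19, beside -0.14, -0.06 and -0.19 over all 7017 genes. Of these 5, 0 were past 2-fold in αA against N, and 1 was higher and 1 lower in each comparison of PαA.

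Of 18 ligand genes, 9 exceeded an RPKM of 5. For αA against N, 7 of 9 were lower (median -0.43) beside 68.1% of all 7017 genes. For PαA against αA, 2 of 9 were lower and 7 higher (median 0.35) beside 56.9% of all genes lower, and for PαA against N 4 were lower and 5 higher (median 0.09) beside 66.4% lower. The higher ones in both comparisons included Tnfsf9, which exceeded an RPKM of 5 in PαA only, so the limit itself favoured a higher value there. Fasl exceeded the limit in αA and PαA but not in N, so the limit favoured a higher value for it in the comparisons with N. Tnfsf14 (LIGHT, a ligand of HVEM) had an RPKM of 17.1, 13.8 and 35.9, with a ratio of 1.38 (1.25 to 1.51) between the last pair. Lta (lymphotoxin α) had 329, 365 and 574 exon reads and reached 16.3 in PαA, and Ltb (lymphotoxin β), the highest of the family, stood at 637, 552 and 677. Tnfsf10 (TRAIL) was lower in αA than in N, with 19.6, 6.53 and 7.49 and a ratio of -1.58. Cd40lg (CD40L), which T cells use to help B cells, stood at 37.6, 21.8 and 27.9, Fasl at 4.67, 7.37 and 6.53 and Tnfsf9, the ligand of 4-1BB, at 4.05, 2.84 and 5.62. Of the Tnfsf9 reads in N, 41.9% were unique. Tnfsf18, which encodes the GITR ligand, had 0 reads in each library. Thus the ligands of 4-1BB and GITR were low or unread in these libraries.

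**Figure D4:**
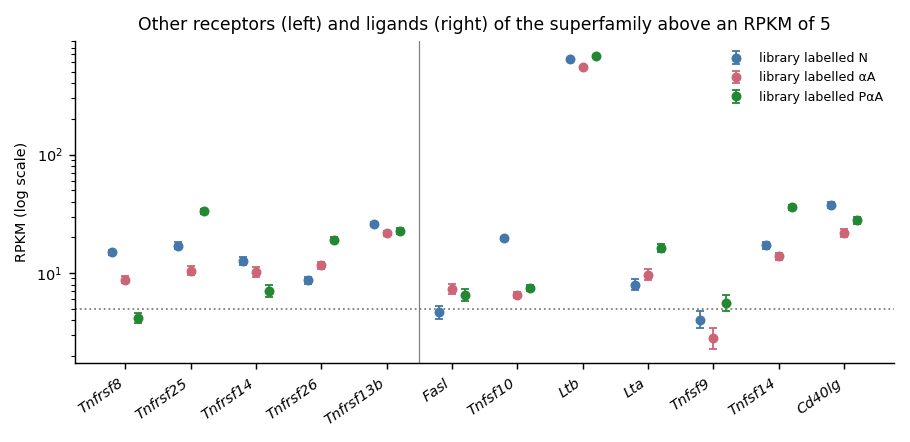
RPKM on a log axis for the 5 other receptor genes (left of the line) and 7 other ligand genes (right) above an RPKM of 5, in N (blue), αA (red) and PαA (green), with 95% counting intervals. Tnfrsf25, Tnfrsf26, Lta and Tnfsf14 are highest in PαA, and Tnfrsf8 is lowest there.

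Downstream of the receptors, 15 TRAF and adaptor genes were read above the limit. None of them was past 2-fold in αA against N or PαA against αA, and Traf2 and Traf3ip3 were past it, both lower, in PαA against N. Traf2 was lost there with TMM, centring or a pseudocount of 1, and both genes with median-of-ratios factors. Traf2, which joins TRAF1 to the receptors, had an RPKM of 27.5 in N, 17.3 in αA and 13.7 in PαA. Of 20 NF-kB pathway genes, 18 were lower in αA than in N, 18 lower in PαA than in αA and 19 lower in PαA than in N, with medians of -0.31, -0.30 and -0.69, beside 68.1%, 56.9% and 66.4% of all 7017 genes. Below the median gene lay 14, 18 and 18 of the 20. Past 2-fold were Map3k14 (NIK, the kinase of the non-canonical pathway, with an RPKM of 5.66, 2.13 and 1.75) in αA against N, Rel (c-Rel, with 7.74, 5.32 and 2.50) in PαA against αA, and both with Bcl3 (39.7, 31.7 and 18.0) in PαA against N. Bcl3 was lost with TMM, median-of-ratios factors or centring, and Rel in PαA against αA with a pseudocount of 1. With a limit of an RPKM above 10, Map3k14 and Rel were lost in every comparison and only Bcl3 was left, in PαA against N. Map3k14 exceeded an RPKM of 5 in N only, and Rel in N and αA only. The limit itself therefore favoured a lower value in the libraries below it. The 12 death receptor pathway genes above the limit had medians of -0.03, -0.17 and -0.21, beside -0.14, -0.06 and -0.19 over all 7017 genes.

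Transcripts of other cells moved between the libraries too. The summed RPKM of 7 neutrophil and monocyte genes was 257 in N, 146 in αA and 215 in PαA, with 0, 3 and 1 of them at 0 reads, and most of it was Lyz2 (214, 134 and 184). S100a8 and S100a9 stood at 12.8 and 15.1 in N, 0.83 and 0 in αA, and 11.9 and 11.5 in PαA. Other genes of this list went otherwise. Csf1r was highest in αA (6.25, 10.6 and 6.62), Cd14 stepped down (2.33, 1.31 and 0.80) and Retnlg stood at 6.03, 0 and 0.32. Plasma cell genes summed to 92.0, 111 and 152, B cell genes to 16.2, 13.1 and 14.6, dendritic cell genes to 3.16, 2.41 and 4.05 and NK cell genes to 7.30, 6.09 and 9.40. The sums of TFR genes (608, 536 and 323) and regulatory T cell genes (246, 277 and 120) were lowest in PαA, as Tnfrsf9, Tnfrsf1b, Tnfrsf4 and Tnfrsf18 were, while T cell genes summed to 1401, 1467 and 1190. Most of the TFR sum was Pdcd1 (341, 205 and 147) and Icos (184, 219 and 114), and Cxcr5 was nearly equal in N and PαA. The largest part of the regulatory T cell sum was Ctla4 (148, 188 and 58.7), highest in αA where Foxp3 was below N. The CD8 T cell genes went opposite ways, with Cd8a at 0.19, 2.10 and 2.90 and Cd8b1 at 9.07, 12.03 and 5.24 (sums of 9.27, 14.1 and 8.14). Among plasma cell genes Sdc1 stood at 0.74, 1.03 and 5.97 and Jchain at 44.3, 58.4 and 94.8, while Xbp1 changed little (46.7, 50.4 and 50.9). The part of these cells in the receptor values was not tested.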

How the data were processed

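Poly(A) RNA of 3 sorted TFR populations was sequenced as single reads by the study's authors and mapped to GRCm38 with CLC Genomics Workbench 12 at default settings. The annotation release was not given in the sources used here. For each library the authors deposited whole read counts per gene (total and unique exon, junction, intron), RPKM and TPM values. Counts were taken as deposited and RPKM as the level. Library totals were recovered from counts, exon lengths and RPKM. The deposited TPM served as an alternative. Of the 25759 genes, 3715 had an exon length of 0 and no RPKM.

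Ratios are log2 quotients of RPKM with no pseudocount. Their 95% intervals are exact (Clopper-Pearson) on the reads of both libraries. They were run on data simulated with counting error alone, which checks the computation and not PCR copies or variation between mice. A gene was past the limit when it exceeded an RPKM of 5 somewhere and differed more than 2-fold in the pair. The study filtered at an expression value above 5 and more than 2-fold without naming the unit, and RPKM was chosen here, since the deposited expression value column equals the exon reads. No test was made, since each genotype had 1 library. TMM factors came from edgeR 4.0.16 in R 4.3.3 and all else from Python 3.11.15 with scipy 1.17.1. Promoters are RefSeq windows (GRCm38.p6) and overlaps are from GENCODE M21. All 10 genes matched by symbol.

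The 10 genes and 5 pathway lists were chosen with earlier results of these data known. Named are the 10 genes, list genes past the limit and receptors and ligands above an RPKM of 5, the targeted genes, the 5 genes nearest to Tnfrsf18, and markers of other cells above an RPKM of 1. Of the other genes of the lists named by this rule, and of single markers, those that bear on a sentence are printed. The result of 1 list gene is not reported here. Alternatives were TPM, TMM, median-of-ratios factors, centring, unique reads, a pseudocount, other RPKM limits and 1.5-fold.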

Additional observations from a re-analysis of the deposited data

How the results depend on the processing

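Of 30 log2 ratios (10 genes in 3 comparisons), 28 kept their sign under 6 alternatives. The exceptions were Tnfrsf1a and Cd27 in PαA against N. With 2-fold and an RPKM above 5, 298, 325 and 725 genes were past the limit in αA against N, PαA against αA and PαA against N. TPM gave 558, 632 and 1539, an RPKM above 1 gave 978, 1016 and 1715, an RPKM above 10 gave 146, 171 and 392, no level limit 5439, 5365 and 5220, and 1.5-fold 988, 1033 and 1966. A pseudocount of 1 gave 194 and 215 in the first and the second comparison. Of the 10 genes, 1, 2 and 2 were past the limit. TPM gave 0, 3 and 5, unique reads gave 3 in the second comparison (Cd27 added in both), and a pseudocount 0 in the first. TMM, median-of-ratios factors and centring on the median gene each gave 1 in PαA against N, without Tnfrsf18. The 1.5-fold limit gave 3, 5 and 6. Genes with mainly unique reads, an alternative chosen after seeing the data, left 0, 1 and 1, since Tnfrsf9 and Cd27 drop out. TPM values were higher than RPKM values, for Tnfrsf18 629, 440 and 262 beside 303, 217 and 145 in N, αA and PαA. A TPM limit of 5 therefore let in genes of lower RPKM, and how far this made the TPM counts was not tested. No paired analysis was possible because each genotype had 1 library, and for that reason no library could be left out. Depth limits the intron ratios and, among exon ratios, those of Tnfrsf1a and Fas.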
